A study of Mus musculus with 2 samples.

Results

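Cxcl9-high tumor macrophages were 70 cells among 1774 macrophages, 5187 retained cells and 7951 deposited barcodes of GR1+ cells taken from 4T1 breast tumors. A barcode was retained with 500 to 5000 detected genes and at most 10% of its unique molecular identifiers (UMIs, each a counted RNA molecule) from mitochondrial genes. It was called a macrophage when S100a8 and S100a9 together made up less than 1.5% of its UMIs and C1qa, C1qb, C1qc, Apoe, Csf1r, Cd68 and Fn1 together at least 0.3%, and Cxcl9-high when Cxcl9 made up at least 0.1% with at least 2 UMIs. The cells were therefore chosen by their measured Cxcl9, and every comparison with the other macrophages describes the chosen cells without testing anything.

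4T1 is a mouse mammary carcinoma line grown as tumors in BALB/c mice. The samples were GR1+ cells from 4T1P tumors, grown from the parental line and non-responding to antibody against PD-1, and from 4T1M tumors, grown from a mutagenized line and responding. Both groups were of the same strain, the labels give an age of 6 to 8 weeks, and no treatment of these mice is given in the labels. Cells of several mice were pooled into 1 droplet library per tumor type, and the sources differ on how many mice. With 1 library each, no difference between 4T1P and 4T1M has a replicate check, so no p-value is given. All intervals are at 95%, are exact and cover counting error only, and the model itself is limited to a single parental and a single mutagenized line.

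CXCL9 is a chemokine that draws T cells and natural killer cells bearing the receptor CXCR3, and macrophages make it mainly under interferon gamma (IFNγ). IFNγ signals through JAK1 and JAK2 and turns on, besides Cxcl9, the guanylate-binding proteins (GBPs) and immunity-related GTPases (IRGs), GTPases that attack membranes around intracellular microbes, and the genes of antigen presentation.

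The rule found 34 such cells among 798 macrophages of 4T1P (4.26%, binomial interval 2.97 to 5.90%) and 36 among 976 of 4T1M (3.69%, 2.60 to 5.07%). The intervals overlapped. Of all retained cells they made up 1.97% (1.37 to 2.74%) in 4T1P and 1.04% (0.730 to 1.44%) in 4T1M, a share that also moves with how many neutrophils were captured. The libraries held 21855657 UMIs in 4T1P and 24303957 in 4T1M, of which 339335 and 353175 lay in Cxcl9-high cells. Their median depth was 8447 UMIs in 4T1P and 9788 in 4T1M, against 9832 and 9144 in the other macrophages. They were not uniform in depth, since 15 of the 34 cells and 14 of the 36 had fewer than 5000 UMIs. The libraries shared 5 barcodes, none of them Cxcl9-high.

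**Figure D1:**
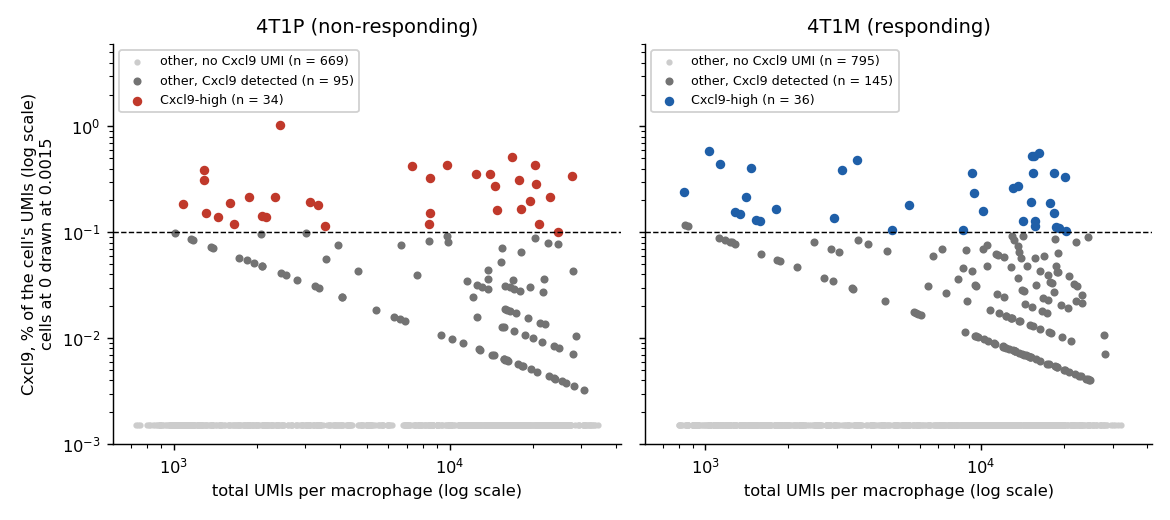
Cxcl9 as a percent of the UMIs of each macrophage against its total UMIs, both on log scales, for 4T1P (left) and 4T1M (right). Colored points are the Cxcl9-high cells (34 and 36), dark gray points are other macrophages with at least 1 Cxcl9 UMI (95 and 145), light gray points have none (669 and 795) and are drawn at the foot of the axis. The dashed line is the 0.1% limit, and Cxcl9-high cells occur at low as well as high depth.

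Within the chosen cells, Cxcl9 ranged from 0.101% over a median of 0.206% to 1.03% of a cell's UMIs in 4T1P, and from 0.104% over 0.191% to 0.584% in 4T1M. Those values fixed the choice and are given only as a description. The cells just inside the limit stood close to those just outside, where the highest shares with at least 2 UMIs were 0.0995% and 0.0925%. In 4T1P 4 of the chosen cells and in 4T1M 5 had only 2 Cxcl9 UMIs. The 5 cells richest in Cxcl9 held 42.2% of the Cxcl9 UMIs of the chosen cells in 4T1P and 43.6% in 4T1M. Together the chosen cells carried 911 of 1218 macrophage Cxcl9 UMIs in 4T1P (74.8%) and 885 of 1387 in 4T1M (63.8%). Unthinned, 95 of the 764 other macrophages of 4T1P and 145 of the 940 of 4T1M had a Cxcl9 UMI. With depth held at 2000 UMIs per cell, reached by 26 chosen cells in each library, it was found in 5.77% and 8.45% of the other macrophages and in 1.34% and 1.22% of the neutrophil-type cells at the same depth. Neutrophil-type cells are no plain measure of background RNA here, since over all of them Cxcl9 was at 5.32 CPM in 4T1P but 38.4 in 4T1M, where 4 of them met the Cxcl9 limits, against 36.4 and 55.8 in the other macrophages.

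Macrophage genes that the rule did not use were present in many of the cells. Adgre1, which encodes the macrophage surface protein F4/80, was found in 16 of 34 and 15 of 36 cells, at 118 CPM (UMIs of a gene per 1000000 UMIs of the summed cells) in 4T1P and 110.4 in 4T1M. Lyz2, the lysozyme of myeloid cells, was found in all 34 and in 34 of 36. Over 18 macrophage identity genes, several of which the rule did use, the median log2 ratio of Cxcl9-high over other macrophages was 0.16 in 4T1P and 0.17 in 4T1M, beside medians of 0.08 and 0.11 over all 10969 genes tested (at least 10 UMIs in each library over the chosen and other cells together, with 0.5 UMI added to each sum). The antibody behind the sort binds Ly6G and Ly6C, whose RNA was scarce here. Ly6g gave 1 UMI in 4T1P and 0 in 4T1M, and Ly6c2 0 and 7, the latter from 2 cells. Of 18 T and natural killer cell markers, 13 were at 0 in the 4T1P cells and 15 in the 4T1M cells, and the list summed to 23.6 and 8.49 CPM. The most abundant was Cd4 with 3 UMIs in 4T1P, while in 4T1M Cd3e, Cd4 and Cd2 had 1 UMI each. Cd8a, Nkg7 and Ifng, the gene of IFNγ, were at 0 in both libraries, which with a floor of 3 UMIs allows up to 8.84 and 8.49 CPM. Of 16 dendritic cell markers, 11 were at 0 in each library, among them Flt3 and Zbtb46, and the sum of 218 and 269 CPM was mostly Naaa, a lipid hydrolase that macrophages also express. Of 10 B and plasma cell markers, 9 and 8 were at 0, and the sums of 73.7 and 36.8 CPM came mostly from Ighm. Of 13 tumor and stroma markers, 9 and 11 were at 0, with Pecam1 the most abundant and sums of 35.4 and 84.9 CPM, and all 8 mast cell, basophil and eosinophil markers were at 0 in both libraries.

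Not every gene attached to the label behaved alike. Of the 6 genes proposed as its markers, Cxcl9 and Iigp1, a membrane-attacking IRG, were at least 2-fold higher than in other macrophages in both libraries. Cfb, complement factor B, was at 333 CPM against 83.3 in 4T1P and 368 against 223 in 4T1M, so past 2-fold in 4T1P alone. Ccl5, a chemokine for T cells, gave 1.85 and 0.53, and H2-Eb1, the beta chain of a class II molecule, 0.96 and 0.32. Ccl8, a monocyte chemokine, was at 719 CPM against 293 in 4T1P but at 93.4 against 249 in 4T1M, so that its log2 ratio was 1.30 (1.10 to 1.48) in the former and -1.39 (-1.95 to -0.92) in the latter. For the 4T1M cells, then, Ccl8 goes against the marker set. A single 4T1M cell held 48.5% of the Ccl8 UMIs there, and without the richest cell of each library the ratios were 0.88 and -2.25.

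Relative to the other macrophages, 326 of 10969 genes (2.97%) were at least 2-fold higher and 258 (2.35%) at least 2-fold lower in both libraries. By sign alone, 3885 genes (35.4%) were positive and 2388 (21.8%) negative in both. Since Cxcl9 chose the cells, these counts serve as a background for the lists and nothing is read from them. Within a single library the shares were 11.5% higher and 9.27% lower in 4T1P, and 11.7% higher and 8.21% lower in 4T1M. Of the 258 lower genes, 164 had 0 UMIs in the chosen cells of a library, where the fitted ratio is no bound. Against a floor of 3 UMIs over the cells of a library, 106 genes were at least 2-fold lower in both. Abundance of 100 CPM or more, in the chosen or the other cells and in both libraries, was reached by 1504 genes, of which 16 were at least 2-fold higher and 24 at least 2-fold lower in both. The 15 highest of these by the ratio nearer to 0 were, after Cxcl9, Serpina3g, Gbp2b, Gbp2, Gbp4, Slamf8, Iigp1, AW112010, Plaat3, Fgl2, Ifi44l, Tmem173, Vcam1, Ass1 and Samhd1. With the chosen cell richest in each gene left out, 11 of the 15 were still at least 2-fold higher in both libraries, the exceptions being Tmem173, Vcam1, Ass1 and Samhd1.

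**Figure D2:**
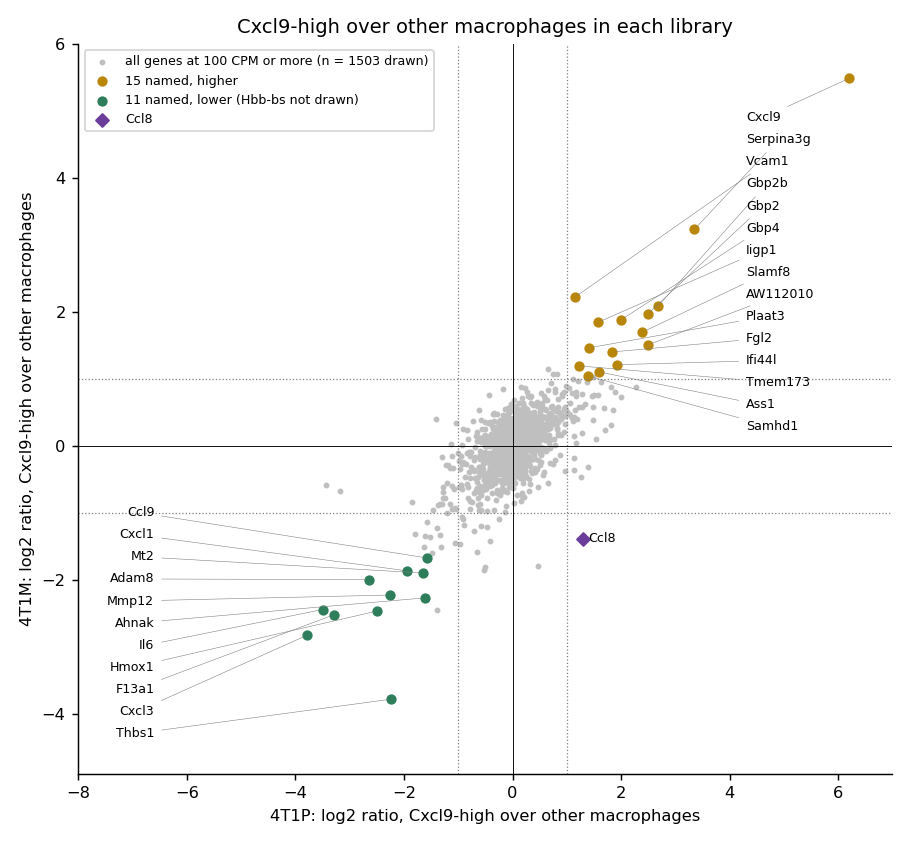
Log2 ratio of Cxcl9-high over other macrophages in 4T1P (horizontal) and 4T1M (vertical) for 1503 of the 1504 genes that reached 100 CPM. The 15 named higher genes lie at the upper right, 11 named lower genes at the lower left, and Ccl8 at the lower right, above 0 in 4T1P and below 0 in 4T1M; dotted lines mark 2-fold, and Hbb-bs is not drawn because it was at 0 UMIs in the 4T1P cells.

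GBPs and IRGs were higher as a group. All 16 of its tested genes had positive ratios in both libraries (35.4% over all genes), 11 of them at least 2-fold (2.97%). The medians were 1.47 in 4T1P and 1.18 in 4T1M. Gbp2b (chromosome 3, 142594847 to 142619179) was at 495 CPM (423 to 576) in 4T1P and 532 (459 to 614) in 4T1M, where other macrophages had 77.2 and 125. Gbp2, its neighbor on chromosome 3 (142620602 to 142638008), was at 256 and 371 CPM against 45.9 and 95.3. Gbp4 on chromosome 5 (105115767 to 105139586) had 463 and 595 CPM against 116 and 162. In these genes, the counting intervals of Cxcl9-high cells lay above the level of the other macrophages in each library. Among the IRGs, Iigp1 reached 127 and 235 CPM against 43.0 and 65.8, while Igtp, a regulatory IRG, had ratios of 1.80 and 1.23 from far fewer UMIs (16 and 24). Members at less than 2-fold in a library were Gbp3, Gbp5, Gbp7, Gbp8 and Irgm1. Several GBPs are close sequence copies of each other, as are Tgtp1 and Tgtp2, so how reads were divided among them is uncertain. Leaving out the richest cell of each gene kept Gbp2b, Gbp2, Gbp4, Gbp10 and Iigp1 at 2-fold or more.

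Most of the cells had such UMIs, as most other macrophages did. GBP and IRG genes together took a median of 0.162% of a Cxcl9-high cell's UMIs in 4T1P (0 to 0.599%) and 0.210% in 4T1M (0 to 0.787%), against medians of 0.0334% and 0.0676% in the other macrophages. In 4T1P 2 cells and in 4T1M 1 cell had none of these UMIs, against 216 of 764 and 173 of 940 other macrophages, and both classes reached from 0 to above 0.5%. Gbp2b was detected in 19 of 34 and 24 of 36 cells. Thinned to 2000 UMIs it was found in 46.2% (26.6 to 66.6%) and 50% (29.9 to 70.1%) of 26 cells, in 12.5% and 15.8% of the other macrophages and in 29.0% and 35.5% of neutrophil-type cells, so this RNA was not limited to macrophages. The list sum was also ordered by Cxcl9 below the limit. It went from 2201 CPM in Cxcl9-high cells over 1176 in macrophages with Cxcl9 below the limit to 557 in those without a Cxcl9 UMI in 4T1P, and from 2859.8 over 1449 to 930.4 in 4T1M. The middle class was the deepest (medians of 15474 and 13610 UMIs), and the part of depth in this order was not tested.

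**Figure D3:**
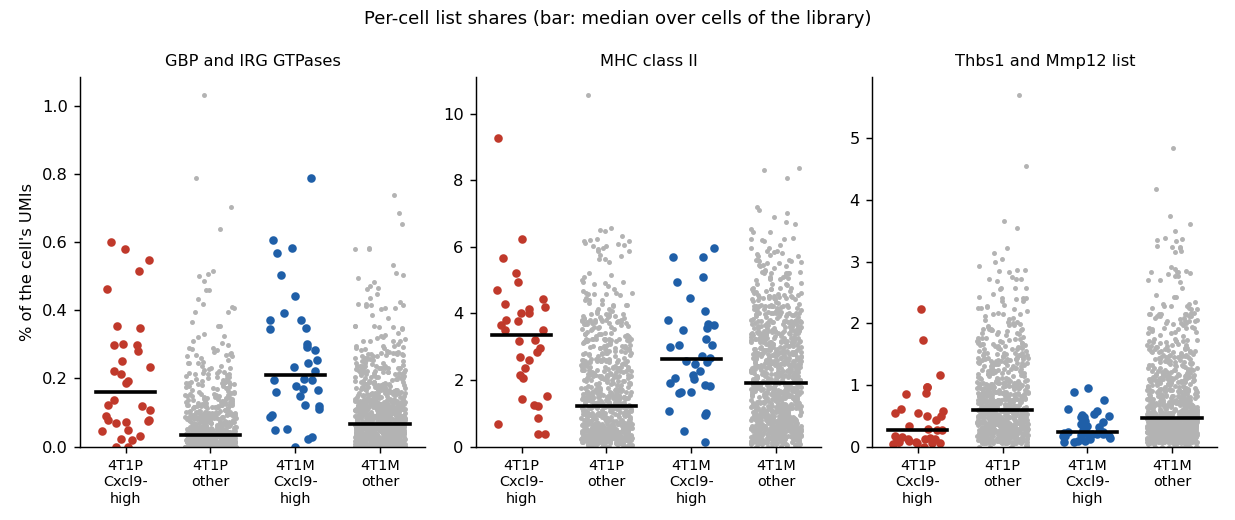
Share of each cell's UMIs (percent, vertical axis) from GBP and IRG genes, MHC class II genes and the Thbs1 and Mmp12 list, for Cxcl9-high cells (colored; 34 in 4T1P, 36 in 4T1M) and other macrophages (gray; 764 and 940). Black bars are medians over cells; Cxcl9-high medians stand above the others in the first 2 panels and below in the last, with overlapping ranges.

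Interferon response sequences are known from the promoters of several of these genes, and the promoters of the named genes are shown for that reason. Of the 15 named higher genes, 11 had a promoter entry in RefSeq (GRCm38.p6) used here, each 250 bases before to 50 after the transcription start, and 10 of the 12 named lower genes had one. The interferon-stimulated response element was searched as GAAA, any 2 bases and GAAA, and the gamma-activated site as TTCNNNGAA, on both strands and no promoter shown held both. The former occurs in 3.44% and the latter in 8.3% of all 32851 promoters, and either in 11.3%. Matches to the response element stood in Gbp2b, Gbp2 and Slamf8, and matches to the gamma-activated site in Serpina3g, Fgl2 and Samhd1, so that 6 of 11 held either and none of the 10 lower genes did. Such a match is a stretch of letters, not a known binding site, and a promoter without one says nothing about the factor. Starts differ between annotations, and by the GENCODE coordinates Gbp2 and Fgl2 start inside the windows shown. For Serpina3g, the bases just after the RefSeq start were not found in its GENCODE transcripts, so that start is uncertain. The windows below run 5′ to 3′ along the gene's strand, capitals mark the match, and all end before the RefSeq start:
Gbp2b (response element, chr3:142594695-142594734, plus strand): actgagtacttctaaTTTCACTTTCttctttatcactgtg
Gbp2 (response element, chr3:142620589-142620628, plus strand): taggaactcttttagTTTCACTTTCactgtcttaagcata
Slamf8 (response element, chr1:172590569-172590598, minus strand): ctttacccgggatgcTTTCGCTTTCaagac
Serpina3g (gamma-activated site, chr12:104236099-104236137, plus strand): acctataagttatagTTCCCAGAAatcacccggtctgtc
Fgl2 (gamma-activated site, chr5:21372622-21372660, plus strand): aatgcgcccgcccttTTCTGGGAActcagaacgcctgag
Samhd1 (gamma-activated site, chr2:157135308-157135346, minus strand): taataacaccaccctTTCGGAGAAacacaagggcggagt
Cxcl9 itself (chromosome 5, 92321347 to 92328079, minus strand) held neither motif in its 300-base window. A κB motif was added after that sequence had been read. It was searched as GGGANTTCC on both strands, occurs in 1.68% of all promoters, and stood in Cxcl9, the only match among the named genes searched, and in Cxcl10. Capitals mark it in the 120 bases before the Cxcl9 start (GRCm38.p6, chr5:92328080-92328199, minus strand):
Cxcl9: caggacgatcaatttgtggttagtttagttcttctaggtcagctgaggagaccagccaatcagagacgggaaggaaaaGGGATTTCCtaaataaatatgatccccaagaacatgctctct

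The other named higher genes came from several pathways. Serpina3g, a protease inhibitor, stood next to Cxcl9 with 359.5 CPM (299 to 429) against 35.4 in 4T1P and 314 (259 to 378) against 33.6 in 4T1M, although its many close copies make the count uncertain. AW112010, a small immune transcript, was found in 31 of 34 and 32 of 36 cells, at 1524 and 1402 CPM against 269.9 and 494. Slamf8, a surface receptor of myeloid cells, had 171 and 144 CPM against 32.7 and 44.9. Each of these was at least 2-fold higher in both libraries without its richest cell too. Fgl2, a fibrinogen-like protein, gave log2 ratios of 1.84 and 1.40, Plaat3, a phospholipase, 1.40 and 1.46, and Ifi44l, an interferon-induced gene, 1.92 and 1.21. Samhd1, which depletes nucleotides and thereby limits viruses, was found in 27 and 28 cells (1.39 and 1.04), and Tmem173, which encodes the DNA-sensing adaptor STING, in 13 and 22 (1.23 and 1.19). Without the richest cell Samhd1 was under 2-fold in 4T1M (0.98) and Tmem173 in 4T1P (0.98). In cells thinned to 2000 UMIs, Tmem173 was found in 7.69% and 26.9% of the Cxcl9-high cells, against 9.39% and 10.2% of the other macrophages.

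Signaling genes of the IFNγ pathway shifted less than the GTPases. Of 15 tested, 1 was at least 2-fold higher in both libraries (2.97% over all genes) and 11 were positive in both (35.4%). The medians were 0.42 and 0.18. Socs1, the feedback inhibitor of the pathway, was the gene past 2-fold, at 1.45 and 1.73, though from 14 and 18 UMIs, and without its richest cell it was at -0.18 and 0.99. The receptor chains Ifngr1 (-0.51 and -0.11) and Ifngr2 (0.81 and 0.38) and the kinase Jak1 (0.09 and -0.05) stayed within 2-fold. Irf8, a transcription factor of macrophages, was at 0.74 and 1.08, and Irf1 at -0.34 and 0.85.

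The type I interferon response genes stood further above the other macrophages in 4T1P than in 4T1M. In 4T1P the list's median log2 ratio was 1.28 and in 4T1M 0.29, and 25 of 29 tested genes were positive in both (35.4% over all genes). Ifi205 and Oas3, 2 of the 29, were at least 2-fold higher in both (2.97% over all genes). Neither was past 2-fold in both without its richest cell. Isg15, a ubiquitin-like protein, was at 922 CPM against 319 in other macrophages of 4T1P and at 824 against 772 in 4T1M. For Ly6e, a membrane protein of interferon-exposed cells, the pairs were 545 against 168 and 606 against 514. Rsad2, the antiviral enzyme viperin, had 763 against 275 and 1167 against 781. The Oas and Ifit families hold close copies whose separate counts are uncertain. In Isg15, Ly6e and Rsad2, the Cxcl9-high cells of the libraries differed less than the other macrophages did.

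Antigen presentation genes were higher in degree rather than past 2-fold. None of the 11 tested genes of the class II pathway was at least 2-fold higher in both libraries, while 10 were positive in both (35.4% over all genes). The list medians were 0.96 and 0.44. H2-Ab1 was at 3949 CPM against 1906 in 4T1P and 3922 against 2862 in 4T1M, and Ciita, the transactivator of these genes, gave 1.25 and 0.51. H2-Eb1 was found in 88.5% and 92.3% of the thinned Cxcl9-high cells, in 59.5% and 76.6% of the other macrophages and in 11.5% and 15.6% of neutrophil-type cells. A cell spent a median of 3.36% of its UMIs on the list in 4T1P and 2.62% in 4T1M, against 1.21% and 1.92%. Of 22 class I and processing genes, 1 was past 2-fold in both (2.97% over all genes) and 18 were positive in both (35.4%), with medians of 0.94 and 0.40. The gene past 2-fold was Tap1, a subunit of the peptide transporter (1.48 and 1.02), but not without its richest cell. In 4T1M the class II sum was higher in macrophages with Cxcl9 below the limit than in the Cxcl9-high cells (31402 against 29566 CPM), and the class I sums were about level, with overlapping counting intervals (11581 against 11657). In 4T1P the order was as for the GBPs, 25600.1 against 29717 and 9378 against 12192. The class I genes H2-Q4, H2-Q6 and H2-Q7 are near-identical copies and their separate levels are uncertain.

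Cxcl10, another CXCR3 ligand, was above the other macrophages in 4T1M only. It was at 292 CPM (237 to 355) against 331 in 4T1P and 555 (480.0 to 638) against 309.6 in 4T1M, detected in 16 of 34 and 22 of 36 cells. Among 17 tested other chemokines, none was at least 2-fold higher and 5 were at least 2-fold lower in both libraries (2.97% and 2.35% over all genes). Those were the neutrophil chemokines Cxcl1 and Cxcl3, the monocyte chemokine Ccl2, and Ccl6 and Ccl9. Cxcl1 was at 678 and 685 CPM against 2609 and 2508 in the other macrophages. Cxcl3 was at 41.3 and 96.3 against 590.3 and 695. Cxcl2, also a neutrophil chemokine, was less far apart (-0.58 and -0.73), and Cxcl16, a ligand of CXCR6, was at 0.74 and 0.56.

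Among the genes lower in Cxcl9-high cells, the 12 named were Hbb-bs, Cxcl3, F13a1, Hmox1, Il6, Thbs1, Mmp12, Adam8, Cxcl1, Mt2, Ahnak and Ccl9. Hmox1, which degrades heme, was at 127 CPM (91.7 to 171) in 4T1P and 125 (90.5 to 167) in 4T1M, against 726 and 698. Mmp12, the macrophage elastase, was at 248 and 258 against 1197 and 1216. Their summed levels in the Cxcl9-high cells of the libraries were nearly equal, and both lay well below those of the other macrophages. A single cell held 39.5% of the Hmox1 UMIs in 4T1P, and 1 cell per library held 45.2% and 45.1% of the Mmp12 UMIs. With the richest cells left out, Hmox1 was at 77.0 and 112 CPM, no longer nearly equal, and Mmp12 at 143 and 148. Il6, an inflammatory cytokine, had 3 and 7 UMIs, at ratios of -3.50 (-6.00 to -2.17) and -2.45 (-3.86 to -1.50). Of the 13 genes of the Thbs1 and Mmp12 list, all tested, 6 were at least 2-fold lower in both libraries (2.35% over all genes). Negative in both were 12 (21.8% over all genes), and the list medians were -1.28 and -1.37. Hbb-bs, a hemoglobin chain of red blood cells, cannot be read as lower in 4T1P. It had 0 UMIs in the 4T1P cells and 2 in the 4T1M cells, but 1 of the other macrophages held 98.8% of their UMIs in 4T1P and 1 held 53.1% in 4T1M. Without that cell the other macrophages of 4T1P were at 3.57 CPM, under the 8.84 CPM that a floor of 3 UMIs allows. In 4T1M they were still at 149 CPM without it, against 5.66 in the Cxcl9-high cells (log2 -4.39). Even there the direction of Hbb-bs was reversed when macrophages were called with macrophage genes at 1% or more. The other 11 were at least 2-fold lower in both libraries without the richest other macrophage too.

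Resident macrophage and scavenger genes were also low. Of 13 tested, 6 were at least 2-fold lower in both libraries (2.35% over all genes), namely Cd163, Folr2, Lyve1, Gas6, Cbr2 and Retnla. The list medians were -1.16 and -0.59. With genes at 0 UMIs set to their bound, 4 were at least 2-fold lower (Cd163, Folr2, Gas6 and Retnla) and the medians were -1.06 and -0.39. Cd163, the receptor for hemoglobin and haptoglobin, had 0 UMIs in the Cxcl9-high cells of both libraries, at least 9.65-fold lower in 4T1P and at least 2.46-fold lower in 4T1M against the floor of 3 UMIs. Mrc1, the mannose receptor, was at 351 CPM against 682 and 224 against 338. Siglec1, a sialic acid receptor that interferon raises in macrophages, went the other way in 4T1P (1.11) and was at 0.10 in 4T1M. Lipid-associated genes such as Spp1 (-1.12 and -0.94) and Fabp5 (-0.98 and -1.48) were lower in most cases. Of these 14 genes, 11 were negative in both libraries (21.8% over all genes) and 1 was at least 2-fold higher (2.97% over all genes). That was Ch25h, a cholesterol hydroxylase, but not without its richest cell. Gpnmb had 0 UMIs in both libraries, which the level in other macrophages of 4T1P, itself under the floor, does not allow to be read as lower there. In 4T1M it was at least 2.59-fold lower against the floor.

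Monocyte genes were mostly low. Of 16 tested, 10 were negative in both libraries (21.8% over all genes). At least 2-fold higher were 2 (2.97% over all genes), Ly6a and Spn, the latter not without its richest cell. At least 2-fold lower were 4 (2.35% over all genes), Chil3, F13a1 and Vcan among them, 3 of these also with genes at 0 UMIs set to their bound. F13a1, a clotting factor subunit, had 44.2 and 22.7 CPM against 449 and 139, with 80% and 87.5% of its UMIs in 1 cell. Thbs1, an adhesive glycoprotein, was at 53.0 and 8.49 against 258 and 137, from 3 UMIs in 4T1M (log2 -3.79, -6.29 to -2.46). Adam8, a membrane protease, was at 32.4 and 36.8 against 211 and 153. Complement genes were split, with 7 of 14 positive and 7 negative in both libraries (35.4% and 21.8% over all genes). Of 12 inflammasome and cell death genes, 1 was at least 2-fold higher in both libraries (2.97% over all genes). That was Mlkl, which perforates the membrane in necroptosis (1.43 and 1.40). The list sums had log2 ratios of -0.00055 (-0.147 to 0.139) in 4T1P and 0.114 (-0.0163 to 0.239) in 4T1M.

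**Figure D4:**
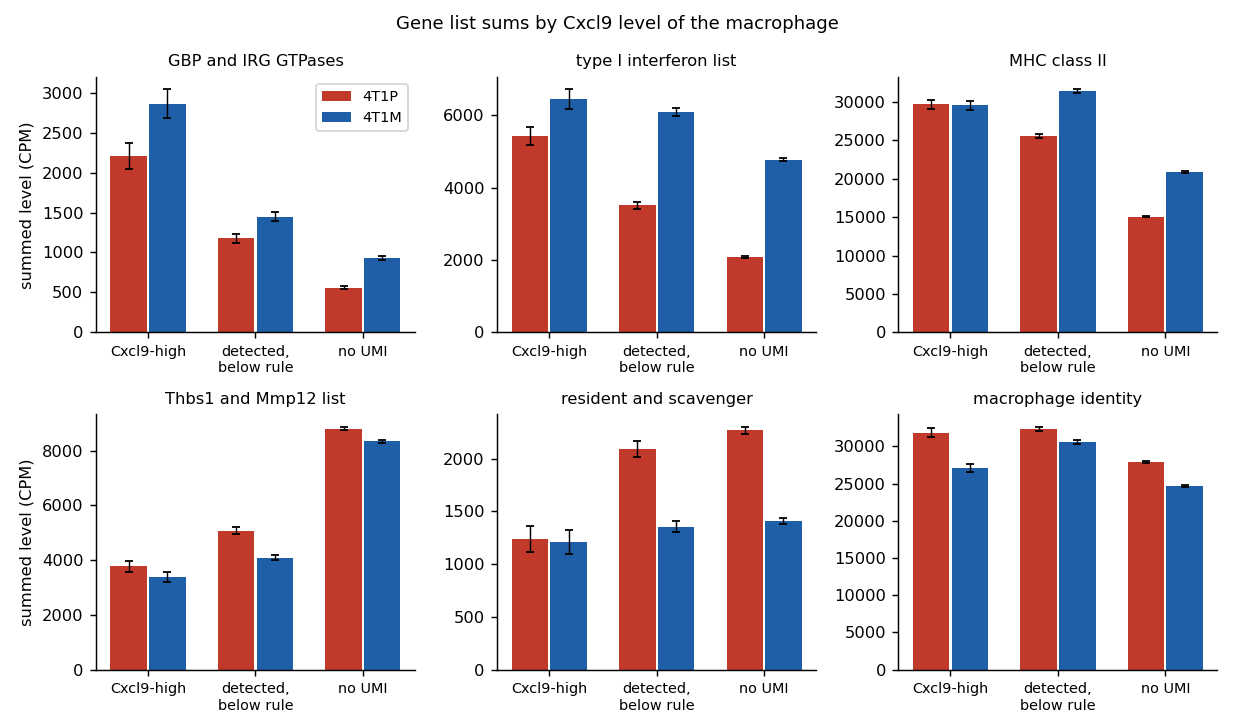
Summed level (CPM) of 6 gene lists in macrophages grouped by Cxcl9: Cxcl9-high, Cxcl9 detected below the limit, and no Cxcl9 UMI, for 4T1P (red) and 4T1M (blue). Bars are sums over all cells of the class and error bars are exact 95% Poisson intervals, counting error only. GBP and IRG sums are highest in Cxcl9-high cells and the Thbs1 and Mmp12 list is highest in cells without a Cxcl9 UMI.

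No checkpoint gene was past 2-fold in both libraries. Cd274, the gene of PD-L1, was at 233 CPM against 169 in 4T1P and 255 against 239 in 4T1M. Of 16 checkpoint and costimulatory genes tested, 6 were positive and 4 negative in both libraries, shares near the 35.4% and 21.8% over all genes, and none reached 2-fold in both. Cd40, a costimulatory receptor, was at 56.0 CPM against 28.6 and 68.0 against 34.7, just under 2-fold. Among 17 tested cytokines, Il27, a cytokine of activated macrophages, was at least 2-fold higher (1.96 and 1.79, from 6 and 10 UMIs), and Il6, Il23a and Il12b were at least 2-fold lower. Over all genes the shares were 2.97% higher and 2.35% lower. Il12b, the shared subunit of IL-12 and IL-23, had 1 UMI in 4T1P (ratio -1.42, -7.31 to 0.52) and 0 in 4T1M, there at least 3.30-fold lower against the floor. Ass1, which regenerates arginine, and Kynu, of tryptophan breakdown, were at least 2-fold higher, but neither was so in both libraries without its richest cell (1.34 and 0.50 for Ass1). Nos2, the inducible nitric oxide synthase, gave 0.01 and -1.60 and was detected in 2 cells of each library, with 83.3% of its UMIs in 1 of them. Complement C3 was at 1.63 and 0.96. Vcam1, an adhesion molecule, was among the named higher genes (1.14 and 2.21) but came from 11 cells per library, with 39.0% and 45.0% of its UMIs in 1 cell; without that cell the ratios were 0.49 and 1.43.

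Clustering of the 1774 macrophages with Cxcl9 left out did not gather the chosen cells in 1 cluster. They were found in 7 of 9 clusters, and 3 clusters held nearly equal shares. The cluster led by Dst, Vcam1, Ifnb1, Gbp4 and Ccl5 held 21 of them among 368 cells (5.71%). The cluster led by Top2a and Cenpe, genes of cell division, held 7 among 123 cells (5.69%). Another 24 lay in a cluster of 466 shallow cells (5.15%) with a median of 1659.5 UMIs, led by AY036118 and Fabp5. The cluster led by Lyve1, Cd163 and Vsig4 had 0 among 99 cells, and the one led by Mmp12, with Nos2 among its leading genes, 1 among 199. Cluster genes include many of those above, so this placement adds no separate evidence.

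Between the libraries, Cxcl9 itself was nearly level in the chosen cells, at 2685 CPM (2513 to 2865) in 4T1P and 2506 (2343 to 2677) in 4T1M, a level that the limit largely fixes. Of 6428 genes with at least 10 UMIs over the cells of both libraries, 373 (5.8%) were at least 2-fold higher in 4T1M and 374 (5.82%) at least 2-fold lower, around a median of -0.01. None of these has a replicate. Of the type I interferon list, 2 of 27 genes were at least 2-fold higher in 4T1M and 2 at least 2-fold lower. The list sum was 5422 CPM in 4T1P and 6444 in 4T1M in Cxcl9-high cells, a log2 ratio of 0.25 (0.16 to 0.34), whereas in the other macrophages it was 2300.3 and 5053, a log2 ratio of 1.14 (1.11 to 1.16). All 27 genes had a lower ratio in Cxcl9-high cells than in the others. However, a single 4T1P cell of 16789 UMIs held 24.3% of the list's UMIs there. Without the richest cell of each library the sums were 4319 and 6130.1 CPM, the ratio was 0.51 (0.41 to 0.60), and 22 of the 27 genes had the lower ratio. Per cell, the list took a median of 0.313% in 4T1P and 0.518% in 4T1M of a Cxcl9-high cell's UMIs, and 0.143% and 0.363% in the others. The class II list had -0.01 (-0.05 to 0.03) in Cxcl9-high cells and 0.47 in the others. The class I list had -0.06 and 0.42, and the GBP and IRG list 0.38 (0.24 to 0.52) and 0.67. The Cxcl9-high cells of both libraries were cut at the same Cxcl9 limit, and the sums of these lists also differed by Cxcl9 class. What part that choice had in the smaller ratios was not tested. With 1 library per tumor type, whether these differences between cell classes would recur was not tested.

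**Figure D5:**
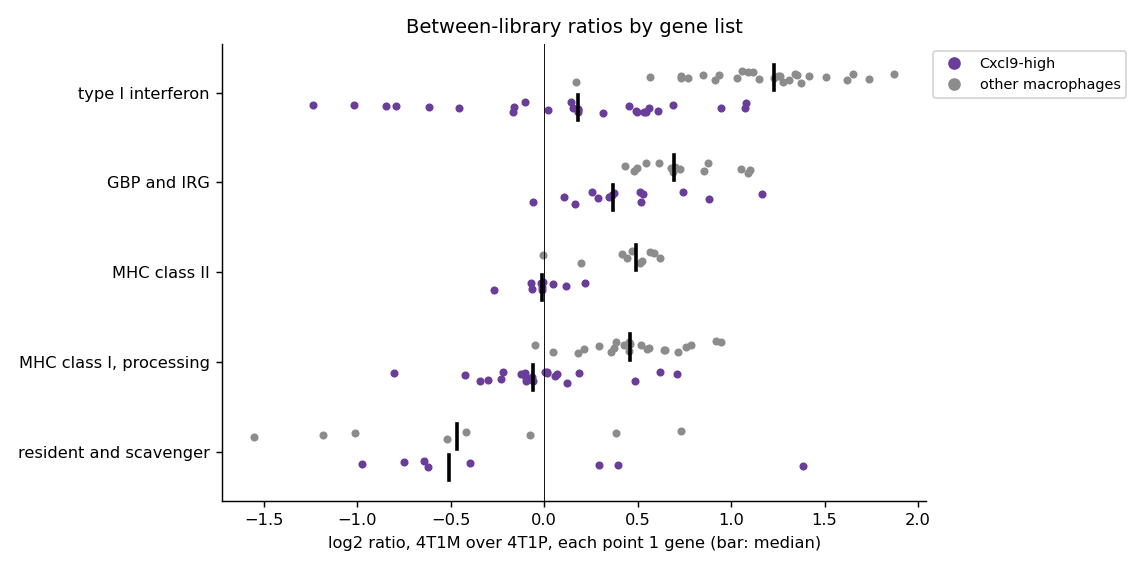
Log2 ratio of 4T1M over 4T1P (horizontal axis) for each gene of 5 lists with at least 10 UMIs in the Cxcl9-high cells of both libraries together, in Cxcl9-high cells (purple) and in the other macrophages (gray). Black bars are medians; the type I interferon median is 0.18 in Cxcl9-high cells and 1.23 in the others, and the class II medians are -0.01 and 0.49.

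Among genes of at least 100 CPM, those highest in 4T1M over 4T1P in these cells were S100a9, S100a8, Tulp4, Mon2, Pf4, Ly6a, Ndufa11, Rab7b, Tbc1d15 and Xist. The lowest were Saa3, Ccl8, Dusp2, Mxi1, Inhba, Dleu2, Mtss1, Idi1, Camk1d and Clec4d. Mxi1 was at -1.68, but its direction was reversed when cells were thinned and called anew. S100a9, a neutrophil alarmin that the macrophage rule limits, was at 118 CPM in 4T1P and 801 in 4T1M, and 315 and 609 in the other macrophages. A single 4T1M cell held 51.6% of its UMIs there, and without the richest cell of each library the ratio of 4T1M over 4T1P was 2.10 instead of 2.75. The 14 neutrophil markers, of which 4 were at 0 in the 4T1P cells and 2 in the 4T1M cells, summed to 362 and 1529 CPM, against 810.3 and 1462 in the other macrophages, with S100a9 the most abundant. Without the cell richest in the list they summed to 299 and 937 CPM, the 4T1M cell having held 42.2% of the list's UMIs there. Their part in the other differences was not tested. Ccl8 showed the reverse, 719 CPM in 4T1P and 93.4 in 4T1M (log2 -2.93, -3.52 to -2.42), while the other macrophages differed by -0.24. Without its richest cell in each library the ratio was -3.37. Dusp2, a phosphatase of MAP kinases, was at 209 and 36.8 CPM (log2 -2.46), against 0.50 in the others. Saa3, an acute-phase protein, had 38 UMIs from 5 cells in 4T1P and 3 from 2 in 4T1M. Ly6a, an interferon-induced surface protein, was at 41.3 and 113 CPM, from 5 and 8 cells, and differed less between the libraries than in the other macrophages (log2 1.42 against 2.59). Tulp4, Mon2, Ndufa11, Rab7b and Tbc1d15 had 1.74, 1.61, 1.37, 1.25 and 1.22 in Cxcl9-high cells, where the other macrophages had -0.05, -0.20, -0.02, -0.16 and 0.20. In 4T1P they rested on 12, 11, 19, 15 and 15 UMIs, and the intervals were wide (0.83 to 2.84 for Tulp4, 0.34 to 2.22 for Tbc1d15). The highest and lowest genes were picked by their ratio in Cxcl9-high cells, so smaller ratios in the other macrophages are partly fixed by that choice. Pf4, a platelet and macrophage chemokine, was at 53.0 and 159 CPM (log2 1.55), with 50% of its 4T1M UMIs in 1 cell. Without its richest cell in each library the Pf4 ratio was 0.97, and its direction was reversed when cells were thinned and called anew. Inhba, an activin subunit, had 76.2% of its 4T1P UMIs in 1 cell, and its ratio of -1.44 was -0.04 without the richest cells. The direction of Inhba was reversed with macrophage genes at 1% or more.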

How the data were processed

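The UMI count matrices were deposited per library by the authors as raw, unnormalized counts of genes by barcodes, made with Cell Ranger 4.0.0 according to the file headers and the submitters' processing notes, for the mouse build mm10. Barcodes were filtered, macrophages and Cxcl9-high cells called, and UMIs summed over cells, scaled to CPM and compared as log2 ratios with Python 3.11.15, numpy 2.4.6, pandas 2.3.3 and scipy 1.17.1. Intervals were exact (Clopper-Pearson for shares, Poisson for levels, conditional binomial for ratios). Ratios were checked on simulated data. The 5000-gene limit was the main treatment of doublets, and a doublet score was an alternative. Macrophages were clustered with scanpy 1.11.5 and leidenalg 0.10.2, without Cxcl9. Factors from edgeR 4.0.16 (TMM) and DESeq2 1.42.0 in R 4.3.3 were used only to rescale. Named genes were the 15 highest and 12 lowest ratios nearer to 0 of both libraries among genes of at least 100 CPM with the same sign in both, and the 10 highest and 10 lowest between libraries, beside the gene lists. The leave-outs of single rich cells and the κB motif were chosen after seeing the data. The members and lists were chosen with earlier results of these data known. Some genes counted in the lists are not reported here by name. Coordinates are from GENCODE vM21 (GRCm38), and promoter sequences from RefSeq (GRCm38.p6).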

Additional observations from a re-analysis of the deposited data

Results flagged for a closer look

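For 8 of the genes described, the counting intervals of the ratio of Cxcl9-high over other macrophages lay on opposite sides of 0 in the libraries. The difference between the libraries was not tested, since each is a single library. Ccl8 was at 1.30 in 4T1P and -1.39 in 4T1M, and this direction was the same without the richest cell. Plac8, a gene of monocytes, was at 1.40 and -0.31, and at 0.44 and -0.67 without the richest cell. S100a9 was at -1.40 and 0.40, but at -1.71 and -0.56 without the richest cell, so that the opposite signs rested on 1 cell of 4T1M. Inhba was at 0.47 and -1.79, and at -1.53 and -2.39 without the richest cell. Ccl4, a chemokine for monocytes and T cells, was at 0.40 and -0.19, Junb, an AP-1 subunit, at 0.30 and -0.27, and Zfp36, which destabilizes cytokine mRNAs, at 0.24 and -0.19. Apoe, a lipid carrier that the macrophage rule itself uses, was at 0.15 and -0.052.

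Barcodes excluded for more than 10% mitochondrial UMIs also held cells that met the macrophage and Cxcl9 criteria, 6 of 201 such macrophages in 4T1P and 3 of 153 in 4T1M. They took no part in any comparison.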

How the results depend on the processing

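With Cxcl9 at 0.2% of UMIs or more, the chosen cells made up 2.13% of macrophages in 4T1P and 1.74% in 4T1M, and 572 genes were at least 2-fold higher. In the thinned setting, cells under 2000 UMIs were dropped, the rest were thinned to 2000, and macrophages and Cxcl9-high cells were called anew. They were then 40 of 629 macrophages in 4T1P and 40 of 767 in 4T1M (6.36% and 5.22%), so not the same cells as in the main setting. Between the libraries 171 genes were higher and 165 lower in 4T1M, from fewer genes tested. With no filter on low counts 2814 genes were higher than in other macrophages, and 1952 were higher and 1792 lower between the libraries. Without the chosen cell richest in each gene, which lowers these cells by construction (medians of -0.26 and -0.21), 53 genes were higher and 888 lower, and 5 GBP and IRG genes were at least 2-fold higher. Of 740 values of named genes over 10 alternatives, 736 kept their direction, but 121 moved by more than their main interval, 35 of them when thinned, 27 at a mitochondrial limit of 5% and 25 at the higher Cxcl9 limit. The exceptions were Hbb-bs in 4T1M (1.83) and Inhba between libraries (4.18) with macrophage genes at 1% or more, and Pf4 (-0.69) and Mxi1 (0.18) between libraries when thinned, and the cause was not tested. TMM factors moved all ratios by -0.07 in 4T1P and -0.10 in 4T1M. No paired analysis was possible because each tumor type had 1 library. Depth limits genes with few UMIs in 34 and 36 cells.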

Other observations

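Cell cycle genes did not set the Cxcl9-high cells far apart. Of 14 genes, all tested, 1 (Stmn1, a tubulin-binding protein) was at least 2-fold higher in both libraries, though not without its richest cell. Positive in both were 6. Over all genes these shares were 2.97% and 35.4%. The list summed to 604 CPM in 4T1P and 631 in 4T1M, against 475 and 459 in the other macrophages, with Mki67, a marker of cycling cells, the most abundant at 150.3 and 144 CPM. Stress and immediate early genes, which respond to tissue dissociation, had 4 of 12 members positive and 4 negative in both libraries (35.4% and 21.8% over all genes), with sums of 11458 and 8576 CPM against 10396 and 9106. Malat1, a long RNA held in the nucleus, was at 12427 and 11954 CPM against 13503 and 15350.3.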
